A study of Mus musculus with 9 samples.

Results

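The transcripts of 43 genes of DNA replication and the cell cycle were followed in microglia sorted from mouse brain. The members were taken by symbol from a fixed list that covers fork protection, origin licensing, the replicative helicase, polymerases, the sliding clamp, nucleotide supply, chromatin copying, cyclins with their kinases, mitosis and 1 kinase inhibitor. All 43 were found among the 23238 gene symbols counted, and 39 of them passed the filter on low counts that left 12292 genes for testing. The other 4, Cdc6, Ccne1, Ccnb2 and Aurkb, were too low to test, and each was at 0 reads in between 3 and 6 of the 9 libraries.

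The cells were CD45+CD11b+P2ry12+ cells of wild-type adult female C57BL/6N mice, taken at day 1. Normal mice were untreated. NMO mice received 1 injection, into the striatum of 1 hemisphere, of IgG from patients with neuromyelitis optica, directed at the astrocyte water channel aquaporin-4, together with human complement. NMO+CL mice were given the same injection after clodronate liposomes, which kill phagocytes of the blood, had been put into the peritoneum. Each group had 3 libraries and each library was a pool of 3 mice, so a p-value here measures the spread between these libraries. Mice with control IgG or with empty liposomes were not analysed here. Injection, antibody and complement therefore cannot be told apart in NMO, nor clodronate from its carrier in NMO+CL.

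DNA is copied once in each division. In G1 the origin recognition complex, Cdc6 and Cdt1 load rings of Mcm2 to Mcm7 onto DNA, and at the start of S phase Cdc45 and the GINS subunits turn these rings into the active helicase. DNA polymerase alpha with its primase then starts each new strand, the clamp Pcna holds the polymerases on DNA, and Timeless with Tipin steadies the fork. Most of these genes are targets of E2F factors, which D-type cyclins release from the retinoblastoma proteins. Genes of G2 and mitosis such as Ccnb1, Mki67 and Birc5 follow later under other control elements. Microglia of the healthy adult brain divide rarely, and they are known to proliferate after injury.

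RNA was read with QuantSeq, which samples the 3′ end of each transcript. The libraries held between 5788234 and 7837219 reads. The ribosomal RNA gene Rn45s took 16.0% to 31.0% of them, and the members together gave 4043 to 10766 reads per library. All 8 microglia markers were present in every library. P2ry12, which was also a sort marker, averaged 2438 CPM (reads per 1000000 library reads, with library sizes scaled by TMM) in Normal, 1645 CPM in NMO and 352 CPM in NMO+CL, and the summed level of the 8 markers was 32302 to 37087, 28012 to 32833 and 19285 to 26870 CPM in these groups. The summed level of 9 neutrophil markers was 99.0 to 582 CPM in Normal, 155 to 479 CPM in NMO and 294 to 1362 CPM in NMO+CL. For 8 monocyte markers these ranges were 22.1 to 51.4, 39.9 to 77.7 and 25.7 to 74.1 CPM. For 8 erythroid and progenitor markers they were 652 to 902, 365 to 947 and 1180 to 1300 CPM. The 6 border macrophage markers summed to 158 to 308 CPM in Normal, to 191, 10.8 and 168 CPM in NMO replicates 1 to 3 and to 220 to 411 CPM in NMO+CL. Lymphocyte markers (9 genes) summed to at most 7.16 CPM in any library, and Cd3e was at 0 reads throughout. NMO replicate 2 stood apart: Cbr2, a marker of border macrophages, was at 0 reads there and at 124 to 272 CPM in the Normal libraries, and its hemoglobin transcripts were lower than in all other libraries. The part of these other transcripts in the results below was not tested.

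The summed level of the members was higher in both injured groups than in Normal, as were the summed helicase core, polymerase and licensing genes, while the summed genes of the clamp, of nucleotide supply and of G2 and mitosis overlapped. These sums were not tested, and the genes that passed the test are given below. Summed over all 43 members, the level was 697, 687 and 679 CPM in Normal replicates 1 to 3, 1108, 1286 and 1016 CPM in NMO and 1214, 1145 and 1074 CPM in NMO+CL. The Normal libraries lay below all 6 others, and NMO and NMO+CL overlapped. Because each pool was measured as bulk RNA, more cells in the cycle and more RNA per cell cannot be told apart. The cyclin D1 gene Ccnd1 gave 35.3% to 43.9% of all member reads in every library. Without it the sums were 391 to 420 CPM in Normal, 658 to 753 CPM in NMO and 689 to 741 CPM in NMO+CL.

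Split by role, the summed helicase core Mcm2 to Mcm7 was 94.9 to 133 CPM in Normal, 262 to 312 CPM in NMO and 216 to 280 CPM in NMO+CL. The 3 polymerase and primase genes summed to 11.5 to 19.7 CPM in Normal, 48.4 to 62.8 CPM in NMO and 35.8 to 70.1 CPM in NMO+CL. The 4 licensing genes summed to 9.87 to 15.8, 20.5 to 27.2 and 22.9 to 24.5 CPM in the same groups. The 6 G1 genes, Ccnd1 among them, summed to 313 to 344, 432 to 595 and 432 to 522 CPM. In these 4 roles every injured library was above every Normal library, but without Ccnd1 the G1 genes summed to 36.8 to 54.2, 61.2 to 73.7 and 46.5 to 88.3 CPM, where NMO+CL overlapped with Normal. The 8 genes of G2 and mitosis summed to 35.2 to 70.5 CPM in Normal, 30.2 to 56.4 CPM in NMO and 31.8 to 60.6 CPM in NMO+CL, and the 3 groups overlapped. The clamp and its loader (31.8 to 60.0, 48.0 to 61.4 and 45.6 to 68.9 CPM) and the nucleotide genes (12.6 to 30.4, 24.0 to 36.0 and 19.7 to 34.4 CPM) overlapped too. In the G2 and mitosis sum, which averaged 53.3, 43.1 and 44.2 CPM, Ccna2 averaged 27.8, 16.5 and 23.0 CPM. The 3′ end of Ccna2 overlaps exons of Exosc9 on the other strand, so its reads may include those of Exosc9. The plot of summed levels by role sets these patterns side by side.

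**Figure D1:**
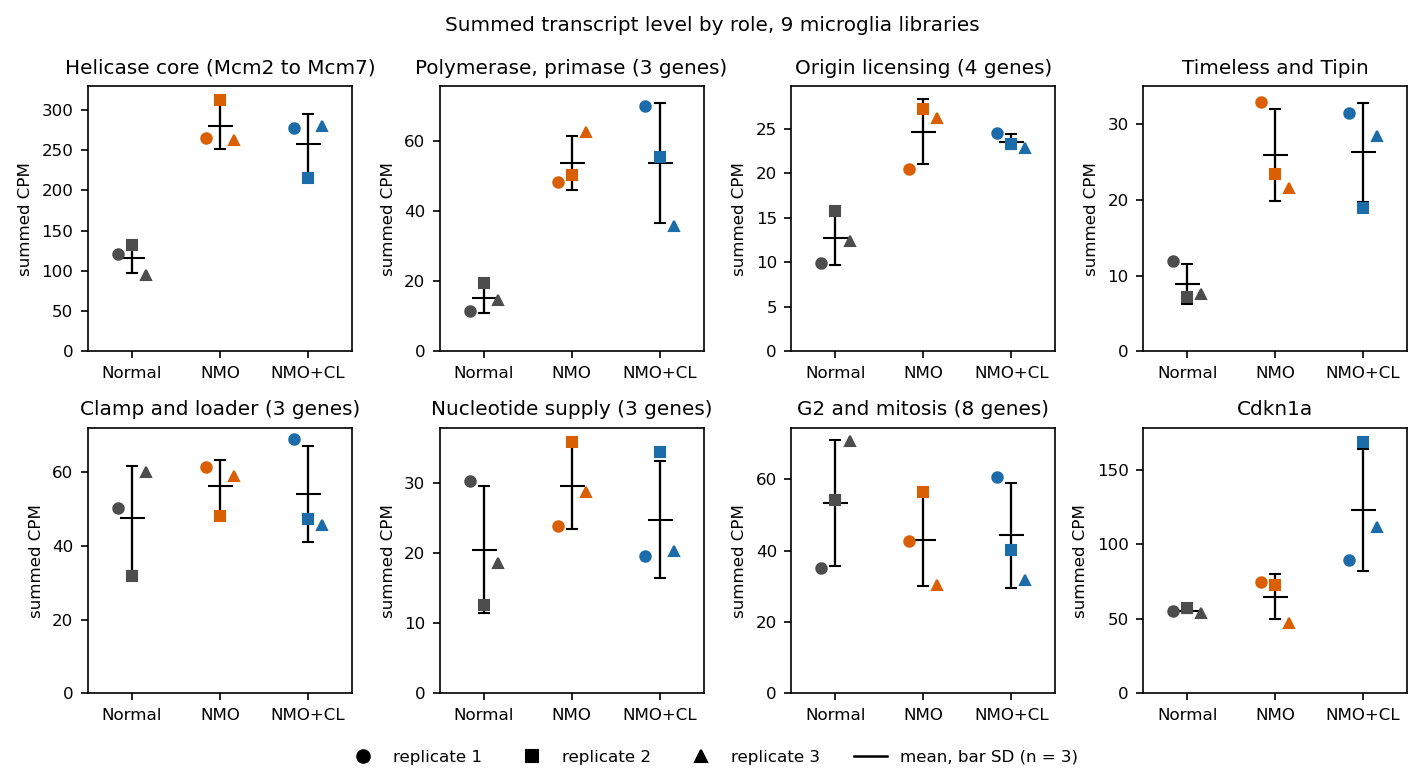
Summed transcript level (y axis, TMM-scaled CPM, each panel with its own scale from 0) of the members of 8 roles in the 9 libraries, grouped on the x axis; symbols are replicates 1 to 3, the horizontal line is the mean of 3 libraries and the bar its SD. The helicase core, the polymerase genes, the licensing genes and the Timeless and Tipin pair are higher in every NMO and NMO+CL library than in any Normal library, whereas the G2 and mitosis genes overlap in all groups and Cdkn1a is separated only in NMO+CL (89.4 to 169 CPM).

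The promoters of members that rose are given here because E2F factors bind near the start of many replication genes. Windows of 300 bases (250 before the start and 50 from it) were read from RefSeq on GRCm38.p6 for 34 of the 43 members. They were searched on both strands for 2 short forms of the E2F core, TTGGCGC and TTCCCGC, and matches that overlapped were each counted. At least 1 match was found in 19 of the 34 members (55.9%), and in 7.79% of 27025 genes with such windows (6.81% of all windows). By role, it was in 4 of 7 helicase genes with a window, all 3 polymerase and primase genes, all 3 chromatin genes, 2 of 4 licensing genes and 3 of 6 genes of G2 and mitosis. The CCAAT box (letters CCAAT) was in 67.6% of the members and 41.1% of genes. The letters TTTGAA, a form of the CHR element of late cell cycle genes, were in 17.6% of the members and 20.2% of genes, and 4 of the 6 members that held them were genes of G2 and mitosis (Mki67, Ccnb2, Cdk1 and Top2a). The windows of Mcm5 (chr8:75109259-75109558, plus strand), Mcm6 (chr1:128359656-128359955, minus strand), Mcm7 (chr5:138171834-138172133, minus strand) and Pola1 (chrX:93632106-93632405, minus strand) are printed as the members called higher that held a core, each 5′ to 3′ with the matches in capitals.
Mcm5: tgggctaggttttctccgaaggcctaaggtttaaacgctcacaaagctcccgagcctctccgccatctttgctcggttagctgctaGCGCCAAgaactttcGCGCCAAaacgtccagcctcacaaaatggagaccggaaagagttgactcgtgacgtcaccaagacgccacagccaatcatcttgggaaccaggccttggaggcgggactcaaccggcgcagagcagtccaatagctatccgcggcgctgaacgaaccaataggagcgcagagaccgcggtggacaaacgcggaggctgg
Mcm6: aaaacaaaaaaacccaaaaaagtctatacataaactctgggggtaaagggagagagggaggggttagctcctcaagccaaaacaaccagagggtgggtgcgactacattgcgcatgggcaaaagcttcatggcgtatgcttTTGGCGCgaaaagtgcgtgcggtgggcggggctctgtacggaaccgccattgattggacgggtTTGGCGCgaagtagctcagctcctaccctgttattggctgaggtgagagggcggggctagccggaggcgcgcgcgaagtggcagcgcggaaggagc
Mcm7: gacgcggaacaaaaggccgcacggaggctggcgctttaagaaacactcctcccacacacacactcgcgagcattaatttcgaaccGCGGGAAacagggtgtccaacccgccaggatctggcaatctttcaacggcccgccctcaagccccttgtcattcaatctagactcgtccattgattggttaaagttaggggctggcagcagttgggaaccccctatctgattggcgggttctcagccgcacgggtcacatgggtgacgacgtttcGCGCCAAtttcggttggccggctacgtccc
Pola1: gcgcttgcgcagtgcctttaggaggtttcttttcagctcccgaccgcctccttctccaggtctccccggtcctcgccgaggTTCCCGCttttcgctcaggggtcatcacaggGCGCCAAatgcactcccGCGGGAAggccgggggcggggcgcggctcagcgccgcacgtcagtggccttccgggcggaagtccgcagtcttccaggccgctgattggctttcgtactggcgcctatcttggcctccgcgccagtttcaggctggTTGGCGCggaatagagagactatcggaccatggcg
The start base is position 251 of each window. Mcm5 held cores at positions 87 and 102, Mcm6 at 142 and 205, Mcm7 at 86 and 271 and Pola1 at 82, 113, 130 and 266. The start base lies 60 and 41 bases upstream of the gene's first base in GENCODE for Mcm5 and Mcm6, at the first base for Pola1 and 539 bases inside the gene for Mcm7. A second Mcm7 window (chr5:138171217-138171516, minus strand), not printed here, held 1 core, at position 138. The start base of that window lies 1156 bases inside the gene. Ccnd2, also called higher, had no window. The Cdkn1a windows held no match. The Timeless window held none either, and its start base lies 6001 bases inside the GENCODE gene. A match is a run of letters and not evidence of binding.

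The first comparison asks how these genes differed 1 day after the injury. In NMO against Normal, 3 members were called higher at an adjusted p under 0.05 (edgeR quasi-likelihood test, Benjamini-Hochberg over all 12292 tested genes), namely Timeless, Mcm7 and Pola1, and 0 were called lower. Among all tested genes 0.472% were called higher and 0.0244% lower. At the looser rule of a 1.5-fold change with an unadjusted p under 0.05, 11 members were higher against 5.19% of all tested genes, and 2 were lower against 2.77%. The higher members were Timeless, Cdt1, Mcm2, Mcm3, Mcm5, Mcm6, Mcm7, Pola1, Pold1, Ccnd1 and Cdk2, and the lower ones were Cdc45 and Birc5. The libraries did not overlap for 15 members that were higher (9.21% of all tested genes) and 2 that were lower (8.2%). The fitted change was above 0 for 30 members (49.3% of all tested genes), and the median log2 fold change of the tested members was 0.70, where that of all tested genes was -0.01. Without NMO replicate 2 only Timeless was called. The count was 0 without Normal replicate 1, without Normal replicate 3 or without NMO replicate 1, and 0 with limma-voom. The Pola1 call ended without any 1 of the Normal or NMO libraries or without NMO+CL replicate 2.

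The comparison of NMO+CL with Normal, which used the same Normal libraries, called 7 members higher and 0 lower, against 4.78% and 4.43% of all tested genes. These were Timeless, Mcm5, Mcm6, Mcm7, Pola1, Ccnd2 and Cdkn1a. At 1.5-fold and an unadjusted p under 0.05, 13 members were higher (9.9% of all tested genes) and 0 were lower (10.2%), and DESeq2 and limma-voom also called 0 lower. Libraries did not overlap for 12 members that were higher (13.8%) and 0 that were lower (14.9%). The fitted change was above 0 for 28 members (49.4%), and its median on the log2 scale was 0.59 for the members and -0.01 for all tested genes. The count of members called higher was 4 without Normal replicate 3 and 4 without NMO+CL replicate 2. The Ccnd2 call ended without any 1 of the Normal libraries or without NMO+CL replicate 2 (edgeR adjusted p = 0.0513 to 0.205), and the Cdkn1a call ended without NMO+CL replicate 2 (edgeR adjusted p = 0.0813). The Mcm5 call ended when replicate 1 or 3 of Normal was left out, or replicate 1 of NMO+CL. The Mcm6 call ended when replicate 2 or 3 of Normal was left out, or replicate 1 or 2 of NMO+CL. The calls of Timeless, Mcm7 and Pola1 in this comparison held with each library left out. With limma-voom the calls of Mcm5, Mcm6 and Pola1 ended (limma adjusted p = 0.0556, 0.159 and 0.0566), and those of the other 4 held.

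Between NMO+CL and NMO, the comparison that asks what clodronate liposomes changed within the injury, edgeR called 0 members higher and 0 lower, against 0.529% and 1.07% of all tested genes. At 1.5-fold and an unadjusted p under 0.05, Ccnd2, Birc5 and Cdkn1a were higher (4.09% of all tested genes) and Ccne2 was lower (6.65%), and no other member had an unadjusted p under 0.05. DESeq2 called 1 member, Cdkn1a, and limma-voom called 0. Ccnd2 and Cdkn1a did not overlap on the higher side (7.89% of tested genes), and Mcm10, E2f1 and Top2a did not overlap on the lower side (9.22%). The fitted change was above 0 for 18 members (49.7%), and its median on the log2 scale was -0.02 for the members and -0.01 for all tested genes.

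**Figure D2:**
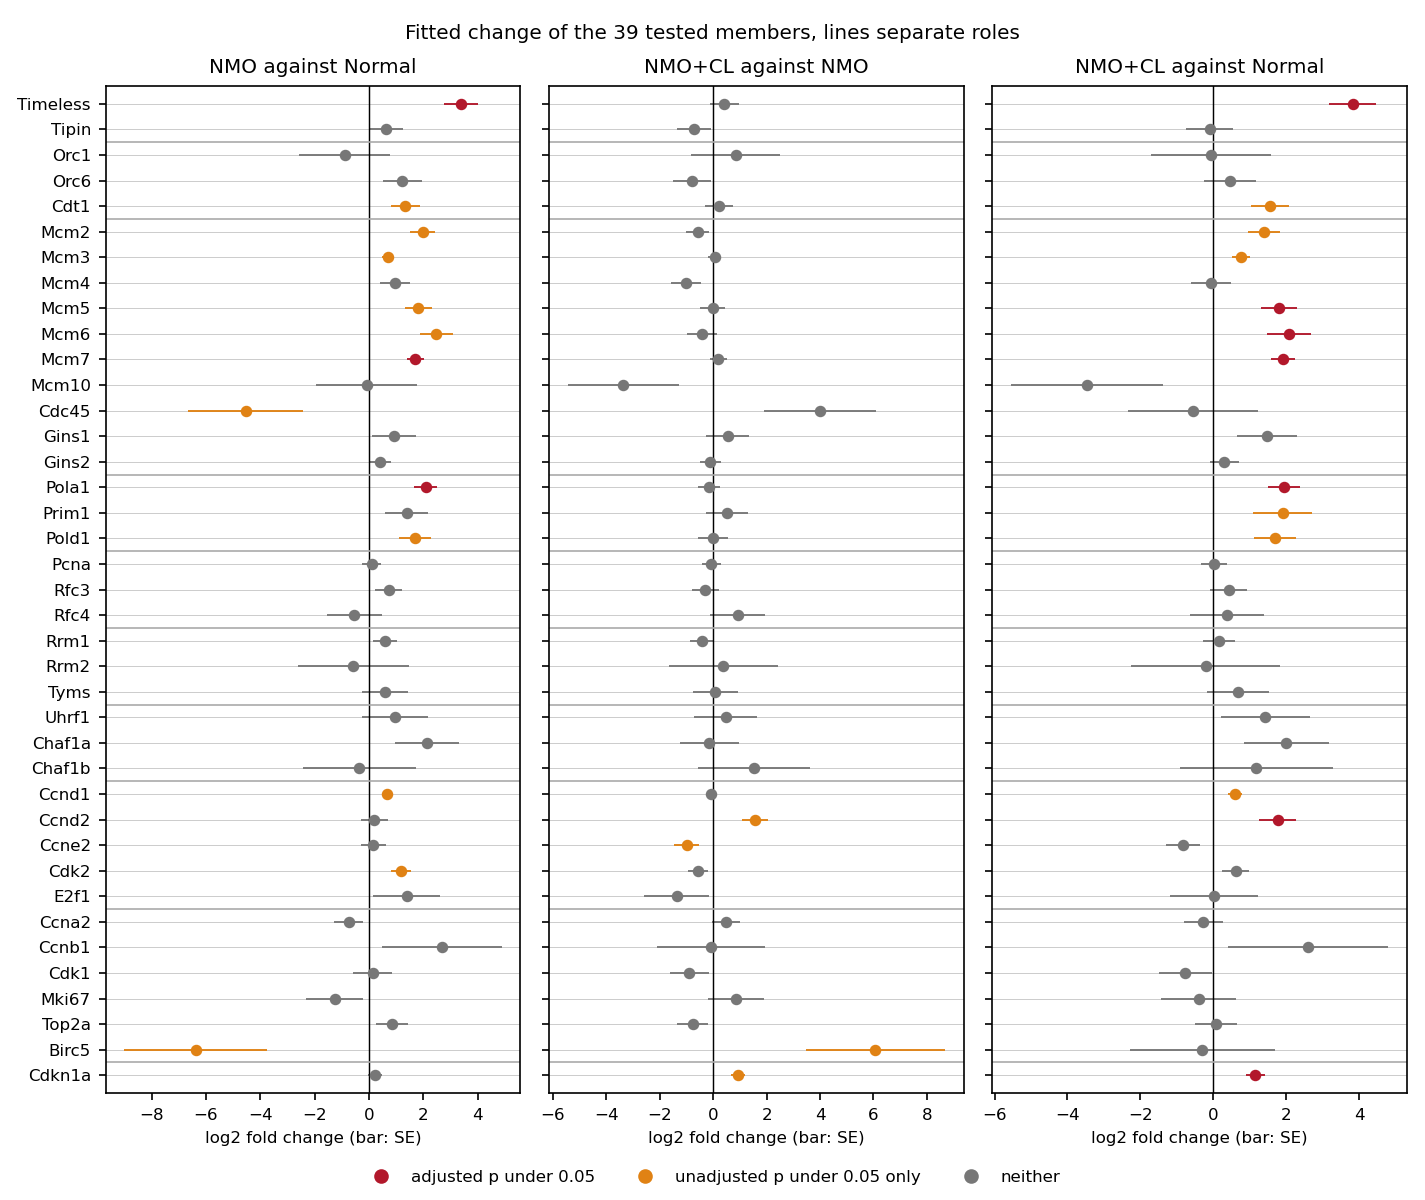
Fitted log2 fold change (x axis, bar SE, from edgeR, n = 3 libraries per group) of the 39 tested members in 3 comparisons, with members on the y axis in the order of their roles and grey lines between roles; each panel has its own x range. Red points passed an adjusted p of 0.05, which 3, 0 and 7 members did, and orange points passed an unadjusted p of 0.05 only; the far points of Cdc45 and Birc5 come from groups with 0 to 2 reads and depend on the model's prior count.

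Timeless, which holds the helicase and polymerases together at the fork, had the largest fitted rise of any tested member in both injured groups. It was at 1.27, 2.25 and 0.504 CPM in Normal replicates 1 to 3, at 17.9, 7.65 and 17.6 CPM in NMO and at 22.1, 12.5 and 23.2 CPM in NMO+CL, from 3 to 152 reads per library. All 6 injured libraries were above all Normal libraries. The log2 fold change was 3.39 ± 0.64 (SE) in NMO (10.5-fold, edgeR adjusted p = 0.0202) and 3.81 ± 0.64 in NMO+CL (14.0-fold, edgeR adjusted p = 0.00108) against Normal, and without Normal replicate 2 these changes were 3.98 and 4.40. The gene lies on the plus strand of chromosome 10 at 128232065 to 128252941 (GENCODE, GRCm38). Its partner Tipin was at 10.7, 4.96 and 7.05 CPM in Normal, 14.9, 15.8 and 4.0 CPM in NMO and 9.32, 6.47 and 5.27 CPM in NMO+CL. Tipin overlapped in all groups, with log2 fold changes of 0.62 ± 0.64 and -0.10 ± 0.64 against Normal, the latter above 0 when Normal replicate 1 or NMO+CL replicate 3 was left out. So the subunits of this complex had different fitted changes, although their difference was not tested.

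Of the 4 licensing genes, Cdt1, which brings the Mcm ring to the origin, was at 3.50, 6.61 and 4.53 CPM in Normal, 15.3, 10.6 and 11.2 CPM in NMO and 14.0, 11 and 18.2 CPM in NMO+CL. Its injured libraries were all above the Normal ones, with log2 fold changes of 1.34 ± 0.53 (edgeR adjusted p = 0.41) and 1.56 ± 0.53 (edgeR adjusted p = 0.0768), which missed the threshold. Orc1 and Orc6, subunits of the origin recognition complex, overlapped between Normal and each injured group and ranged from 0 to 3.50 CPM and from 2.86 to 16.3 CPM over the 9 libraries. Cdc6, which helps to load the helicase, stayed at or under 12 reads in each library.

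Of the 6 core helicase genes, 5 were higher without overlap in NMO than in Normal, as were 9.21% of all tested genes, and 4 of them in NMO+CL, as were 13.8%. Mcm7 was at 18.1, 21.6 and 10.6 CPM in Normal, 44.2, 71.6 and 48.6 CPM in NMO and 51.0, 57.2 and 79.6 CPM in NMO+CL. The lowest injured library was above the highest Normal library, and the log2 fold changes were 1.70 ± 0.32 (edgeR adjusted p = 0.0214) in NMO and 1.90 ± 0.33 (edgeR adjusted p = 0.00123) in NMO+CL. Mcm7 lies at 138164583 to 138172422 on the minus strand of chromosome 5. Mcm6 was at 10.8, 2.40 and 6.05 CPM in Normal, 43.5, 35.0 and 28.4 CPM in NMO and 51.1, 22.6 and 7.19 CPM in NMO+CL. It was separated from Normal in NMO (2.47 ± 0.60, edgeR adjusted p = 0.0833) but not in NMO+CL, where replicate 3 lay among the Normal values and the change was nevertheless called (2.07 ± 0.60, edgeR adjusted p = 0.0369). Without NMO+CL replicate 1 the latter change was 1.22, and without Normal replicate 1 the changes were 3.07 in NMO and 2.68 in NMO+CL. Mcm5 was at 7.0, 13.2 and 3.53 CPM in Normal, 17.6, 25.9 and 40.3 CPM in NMO and 39.3, 20.1 and 23.3 CPM in NMO+CL. It did not overlap with Normal in either injured group, and its log2 fold changes of 1.81 ± 0.49 and 1.79 ± 0.49 had edgeR adjusted p-values of 0.132 and 0.0271. Without Normal replicate 2 these changes were 2.40 and 2.38.

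Mcm2 was at 7.80, 9.76 and 7.05 CPM in Normal, 26.2, 54.5 and 16.1 CPM in NMO and 19.1, 18.8 and 26.9 CPM in NMO+CL. Its log2 fold changes were 1.97 ± 0.45 (edgeR adjusted p = 0.0603) and 1.39 ± 0.45 (edgeR adjusted p = 0.0599), just outside the threshold, with no overlap in either comparison. Without NMO replicate 2 the former was 1.36. Mcm3 was at 55.9, 76.2 and 54.9 CPM in Normal, 106, 104 and 93.2 CPM in NMO and 90.9, 84.9 and 140 CPM in NMO+CL. Its log2 fold changes of 0.70 ± 0.24 and 0.75 ± 0.24 were smaller, with no overlap and edgeR adjusted p-values of 0.288 and 0.0562. Mcm4 was at 21.6, 9.46 and 12.8 CPM in Normal, 28.0, 21.6 and 35.8 CPM in NMO and 26.5, 12 and 3.68 CPM in NMO+CL. Mcm4 overlapped with Normal in both groups. Its log2 fold change was 0.96 ± 0.55 in NMO and -0.05 ± 0.55 in NMO+CL, and the latter was 0.02 with library totals alone. For the 6 core genes the median log2 fold change was 1.76 in NMO and 1.59 in NMO+CL against Normal, and -0.21 in NMO+CL against NMO. The plot of single members by library shows these spreads.

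**Figure D3:**
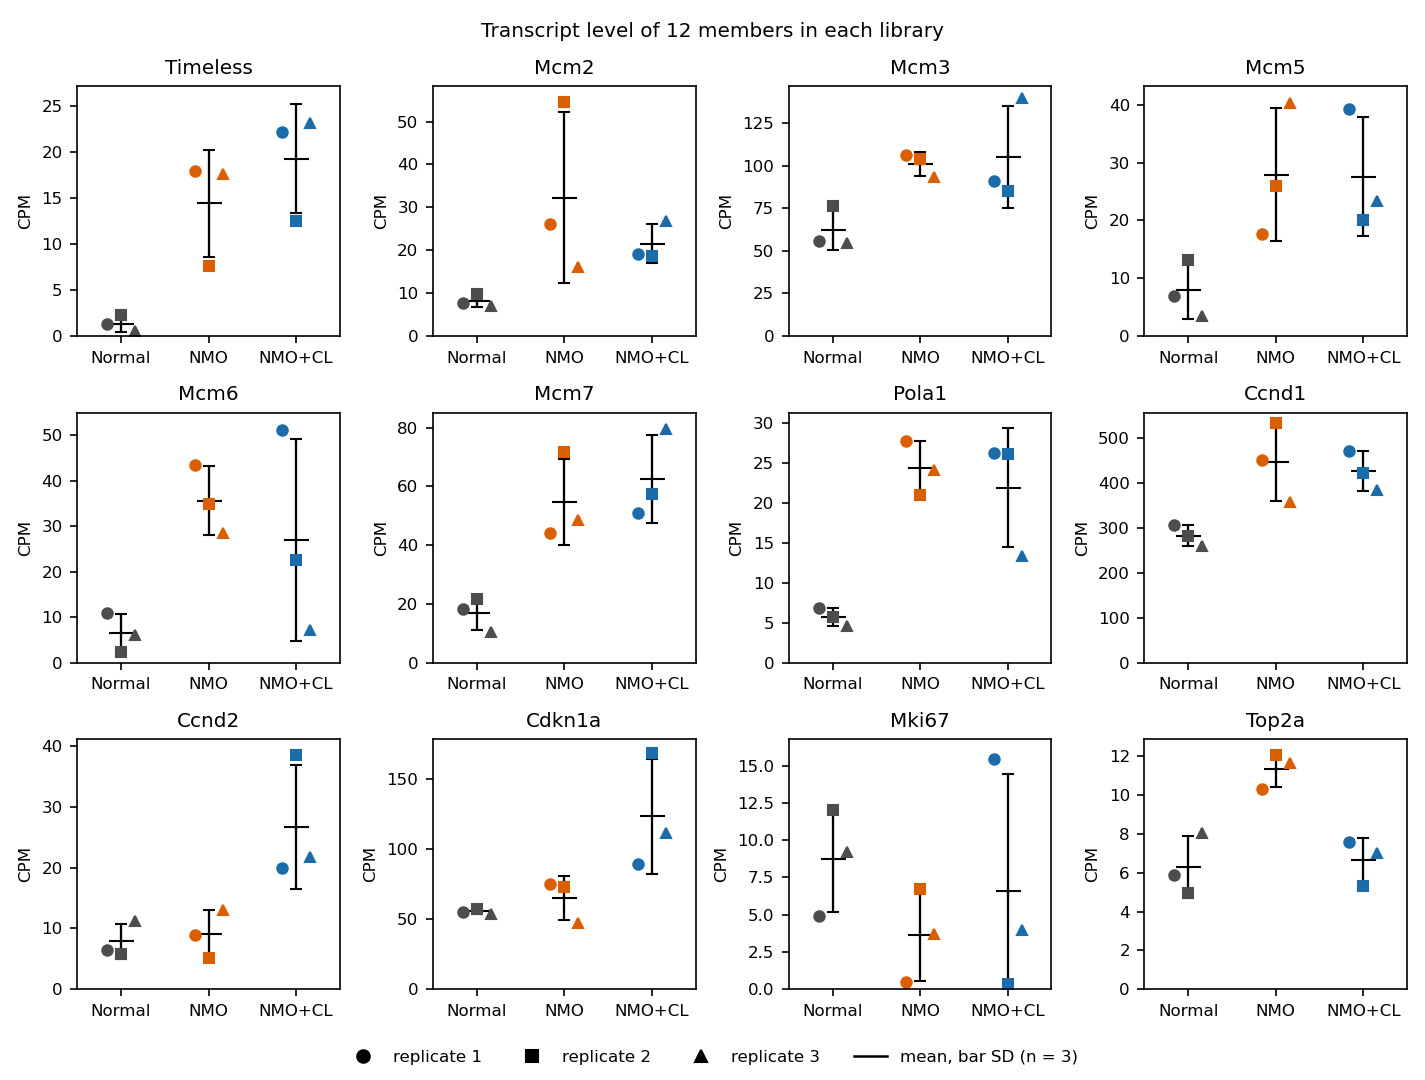
Transcript level (y axis, TMM-scaled CPM, each panel with its own scale from 0) of 12 members in the 3 Normal, 3 NMO and 3 NMO+CL libraries (x axis); symbols are replicates, the line is the mean and the bar the SD. Timeless, Mcm2, Mcm3, Mcm5, Mcm7, Pola1 and Ccnd1 have every injured library above every Normal library, Ccnd2 and Cdkn1a are separated only in NMO+CL, and Mki67 overlaps in all groups.

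The 4 genes that activate the helicase had no common direction, and none passed the adjusted threshold in any comparison. Cdc45 gave 19, 13 and 19 reads in the Normal libraries, 0, 0 and 2 reads in NMO and 16, 20 and 0 reads in NMO+CL. Its summed count was 30.5-fold lower in NMO than in Normal (exact 95% interval 8.02 to 259, counting error only), with an unadjusted p of 0.0468 and an edgeR adjusted p of 0.514. The NMO libraries were all below the Normal ones, and NMO+CL spanned both. Mcm10, which helps the helicase to start, was at 0 to 6.91 CPM over the 9 libraries, with 3 libraries at 0 reads. The GINS subunit genes Gins1 and Gins2 were at 1.43 to 14.9 CPM and 13.4 to 39.3 CPM and overlapped between Normal and NMO. Gins1 did not overlap between Normal (1.43, 4.66 and 3.70 CPM) and NMO+CL (7.28, 5.01 and 14.9 CPM), at an edgeR adjusted p of 0.317.

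Of the 3 polymerase and primase genes, Pola1 was called higher in both injured groups, and Pold1 and Prim1 did not pass the test in either. Pola1, the catalytic subunit of polymerase alpha, was at 6.84, 5.71 and 4.53 CPM in Normal, 27.7, 20.9 and 24.1 CPM in NMO and 26.2, 26.0 and 13.3 CPM in NMO+CL. No injured library overlapped with a Normal one, and the log2 fold changes were 2.09 ± 0.43 (4.25-fold, edgeR adjusted p = 0.0375) and 1.94 ± 0.43 (3.82-fold, edgeR adjusted p = 0.00767). Pola1 lies at 93304767 to 93632155 on the minus strand of chromosome X. Pold1, the catalytic subunit of the lagging strand polymerase delta, was at 1.91, 11.3 and 8.57 CPM in Normal, 14.7, 22.7 and 33.2 CPM in NMO and 32.6, 26.5 and 10.9 CPM in NMO+CL. It was separated in NMO only, with log2 fold changes of 1.69 ± 0.57 (edgeR adjusted p = 0.279) and 1.68 ± 0.57 (edgeR adjusted p = 0.0784). Prim1, the primase subunit that makes the RNA primer, was at 2.71, 2.70 and 1.51 CPM in Normal, 6.02, 6.69 and 5.43 CPM in NMO and 11.2, 3.07 and 11.7 CPM in NMO+CL. It did not overlap with Normal in either group and did not pass the adjusted threshold (edgeR adjusted p = 0.644 and 0.167).

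The clamp, its loader and the nucleotide genes did not pass either rule in any comparison. Pcna, the clamp itself, was at 29.3, 22.1 and 34.4 CPM in Normal, 33.6, 37.3 and 20.9 CPM in NMO and 39, 29.6 and 18.4 CPM in NMO+CL. Its groups overlapped fully, and the log2 fold changes of 0.10 ± 0.35 and 0.02 ± 0.36 changed sign when single libraries were left out. The clamp loader genes Rfc3 and Rfc4 were at 8.12 to 33.1 CPM and 0.15 to 12.9 CPM. Rrm1 and Rrm2, the subunits of ribonucleotide reductase, and Tyms, which makes thymidylate, had log2 fold changes between -0.58 and 0.68 against Normal in both groups, and their libraries overlapped in every comparison. A p above the threshold does not show that they did not differ. The chromatin genes were low: Uhrf1, which carries DNA methylation through replication, and the histone chaperone subunits Chaf1a and Chaf1b were at 0 to 7.99 CPM. Chaf1a alone of these was separated in NMO, at 1.27, 1.2 and 0.84 CPM in Normal and 2.64, 6.93 and 5.27 CPM in NMO (log2 fold change 2.14 ± 1.17, edgeR adjusted p = 0.617).

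The members Ccnd1 and Ccnd2 encode D-type cyclins, which carry growth signals into the cycle, and the difference between them was not tested. Ccnd1 was at 306, 282 and 259 CPM in Normal, 450, 533 and 358 CPM in NMO and 472, 423 and 385 CPM in NMO+CL. All 6 injured libraries were above Normal, and the log2 fold changes of 0.66 ± 0.19 and 0.59 ± 0.19 had edgeR adjusted p-values of 0.152 and 0.0542. Ccnd2 was at 6.52, 5.86 and 11.3 CPM in Normal, 8.91, 5.14 and 13.1 CPM in NMO and 20.0, 38.5 and 21.7 CPM in NMO+CL. It was thus higher in NMO+CL than in all other libraries, with a log2 fold change of 1.76 ± 0.50 against Normal (edgeR adjusted p = 0.0338) and of 1.56 ± 0.50 against NMO (unadjusted p = 0.00575, edgeR adjusted p = 0.147). In NMO its change was 0.20 ± 0.49.

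Cdk2, the kinase that starts S phase with E-type cyclins, was at 10.3, 14.3 and 16.8 CPM in Normal, 31.2, 27.8 and 34.7 CPM in NMO and 16.5, 30.4 and 16.3 CPM in NMO+CL. It was separated from Normal in NMO (1.18 ± 0.38, edgeR adjusted p = 0.241) and overlapped with it in NMO+CL (0.61 ± 0.38). Ccne2, an E-type cyclin, was at 17.8, 14.1 and 23.3 CPM in Normal, 16.8, 22.2 and 22.5 CPM in NMO and 6.70, 17.5 and 6.87 CPM in NMO+CL. Its log2 fold change in NMO+CL against NMO was -0.99 ± 0.46 (unadjusted p = 0.0464, edgeR adjusted p = 0.39), with replicate 2 of NMO+CL inside the NMO range, and -1.59 without that replicate. E2f1, the transcription factor of the pathway, was low, at 0.477, 2.55 and 2.52 CPM in Normal, 5.90, 5.26 and 3.36 CPM in NMO and 2.04, 1.94 and 1.60 CPM in NMO+CL. The NMO libraries lay above all others for E2f1, and neither comparison passed the test (edgeR adjusted p = 0.845 and 0.728).

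The G2 and mitosis genes had no common direction. Mki67, the proliferation marker, was at 4.93, 12 and 9.24 CPM in Normal, 0.502, 6.69 and 3.68 CPM in NMO and 15.4, 0.323 and 4.0 CPM in NMO+CL. Its groups overlapped, with log2 fold changes of -1.26 ± 1.05 and -0.40 ± 1.03 against Normal. Top2a, which untangles the copied DNA, was at 5.89, 4.96 and 8.06 CPM in Normal, 10.3, 12.1 and 11.7 CPM in NMO and 7.57, 5.34 and 7.03 CPM in NMO+CL. The 3 NMO libraries were above all others, but its changes of 0.85 ± 0.58 against Normal and -0.77 ± 0.58 in NMO+CL against NMO had edgeR adjusted p-values of 0.733 and 0.654. Birc5, the survivin of the chromosomal passenger complex, gave 2, 8 and 18 reads in Normal, 0 reads in each NMO library and 13, 11 and 0 reads in NMO+CL. Against a floor of 3 reads in each library its mean level was at least 3.74-fold lower in NMO than in Normal, at an unadjusted p of 0.0285 and an edgeR adjusted p of 0.457. The cyclin and kinase genes Ccna2, Ccnb1 and Cdk1 overlapped between groups in every comparison. The median log2 fold change of the 6 tested genes of this role was -0.31 in NMO and -0.29 in NMO+CL against Normal, with Birc5 at its fitted value or at its bound.

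Cdkn1a, which encodes the kinase inhibitor p21, was at 55.2, 57.1 and 53.9 CPM in Normal, 74.9, 72.9 and 47.3 CPM in NMO and 89.4, 169 and 112 CPM in NMO+CL. NMO replicate 3 lay below the Normal range and the other NMO libraries above it, whereas every NMO+CL library was above the other 6. The log2 fold change was 1.15 ± 0.26 (2.22-fold, edgeR adjusted p = 0.0091) in NMO+CL against Normal. Against NMO it was 0.92 ± 0.26 (1.89-fold, unadjusted p = 0.00252, edgeR adjusted p = 0.0969), and in NMO against Normal 0.23 ± 0.26. Cdkn1a and Ccnd2, of opposite roles in G1, were the members whose NMO+CL libraries lay above all 6 others, where the erythroid and progenitor marker sum was above and the microglia marker sum below those of all other libraries, where the border macrophage sum was above that of every NMO library (though not of every Normal one), and where the neutrophil sum was highest on average. The summed levels of the endothelial markers and of the markers of astrocytes, oligodendrocytes and their progenitors overlapped between NMO+CL and the other groups. Of these markers, Kdr was called higher in NMO+CL than in NMO and Normal (29.9 to 39.2 CPM, against 7.29 to 11.8 and 7.81 to 17.8 CPM). Pdgfra was called higher than in NMO (3.72 to 14.9 against 0 to 0.479 CPM), while Slc1a2 was called lower than in Normal. Against Normal, 3 of the 5 tested endothelial markers and 4 of the 6 tested astrocyte and oligodendrocyte lineage markers had fitted changes below 0. Against NMO these numbers were 2 and 5. The part of all these in the levels of Ccnd2 and Cdkn1a was not tested.

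The other genes of the pathway, 142 in number, came from 5 lists of replication, cell cycle and mitosis genes. Of these 126 were tested, and their median log2 fold change was 0.28 in NMO and 0.19 in NMO+CL against Normal. In NMO 0 of them were called in either direction by edgeR, while at 1.5-fold and an unadjusted p under 0.05 there were 5 higher (Wdhd1, Hells, Nasp, Atad2 and Cdc25a) and 4 lower (Rbl2, Tfdp2, Cenpf and Smc4), near the shares of 5.19% and 2.77% over all tested genes. In NMO+CL against Normal, 2 were called higher and 4 lower, where 4.78% and 4.43% of all tested genes were called, and at the looser rule 13 were higher (9.9%) and 6 lower (10.2%). Hells, a chromatin remodeller of S phase, averaged 3.00 CPM in Normal, 13.3 CPM in NMO and 13.7 CPM in NMO+CL (log2 fold change 2.18 ± 0.59, edgeR adjusted p = 0.0251). Dctpp1, which clears faulty nucleotides, averaged 21, 31.6 and 51.4 CPM (1.29 ± 0.33, edgeR adjusted p = 0.0194).

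The 4 genes called lower were the origin gene Orc3, the phosphatase gene Cdc25b, the pocket protein gene Rbl2 and the condensin gene Ncaph. Ncaph was at 17.0, 20.0 and 11.6 CPM in Normal, 11.4, 11.9 and 24.5 CPM in NMO and 0.874, 3.40 and 2.56 CPM in NMO+CL, below all others. It was the only gene of the 142 called between NMO+CL and NMO (-2.80 ± 0.61, edgeR adjusted p = 0.0252). Orc3 was at 134, 131 and 203 CPM in Normal and 83.2, 89.9 and 73.1 CPM in NMO+CL (-0.93 ± 0.22, edgeR adjusted p = 0.0109). Rbl2, which holds E2F target genes off in resting cells, averaged 59.2 CPM in Normal and 27.7 CPM in NMO+CL (-1.09 ± 0.31, edgeR adjusted p = 0.0326). Cdc25b gave 15, 28 and 19 reads in Normal and 0 reads in each NMO+CL library. The median log2 fold change of the 35 tested mitosis genes of these lists was -0.03 in NMO and -0.15 in NMO+CL against Normal.

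For some members the reads may come from more than 1 gene, since QuantSeq reads the 3′ end and reads with several alignments were counted. The last 500 bases of Mcm7 overlap exons of Cops6 on the other strand, and the strand setting of the counting is not given in the sources used here. Cops6 had log2 fold changes of -0.05 and 0.50 against Normal in NMO and NMO+CL, below those of Mcm7, and 361 bases of this end match the gene Gm5487 at 98.3% identity. In Mcm6, 155 bases match Gm15654 at 94.2%. In Mki67, 190 bases match Gm44521 at 98.4%, in Birc5, 84 bases match Gm48337 at 92.9%, and Tipin resembles 6 genes, with the longest stretch of 85 bases in Wasl at 95.3%. The end of Mcm5 resembles transcripts of 544 genes over at least 75 bases at 90% identity or more (the longest such stretch has 164 bases), so reads of other genes may be among its counts. For Ccne2 the ratio to the overlapping Ints8 stayed between 0.517 and 1.05 in the 9 libraries, and for Ccna2 the ratio to Exosc9 stayed between 0.538 and 1.01. Ints8 had a log2 fold change of -1.27 in NMO+CL against NMO, beside -0.99 for Ccne2. The ends of Gins2, Rfc4, Chaf1a and Ccnd1 overlap Gse1, Eif4a2, Ubxn6 and Oraov1 in the same way. Timeless and Pola1 had no such overlap or match in this search. The plot of overlapping ends shows 4 of these pairs.

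**Figure D4:**
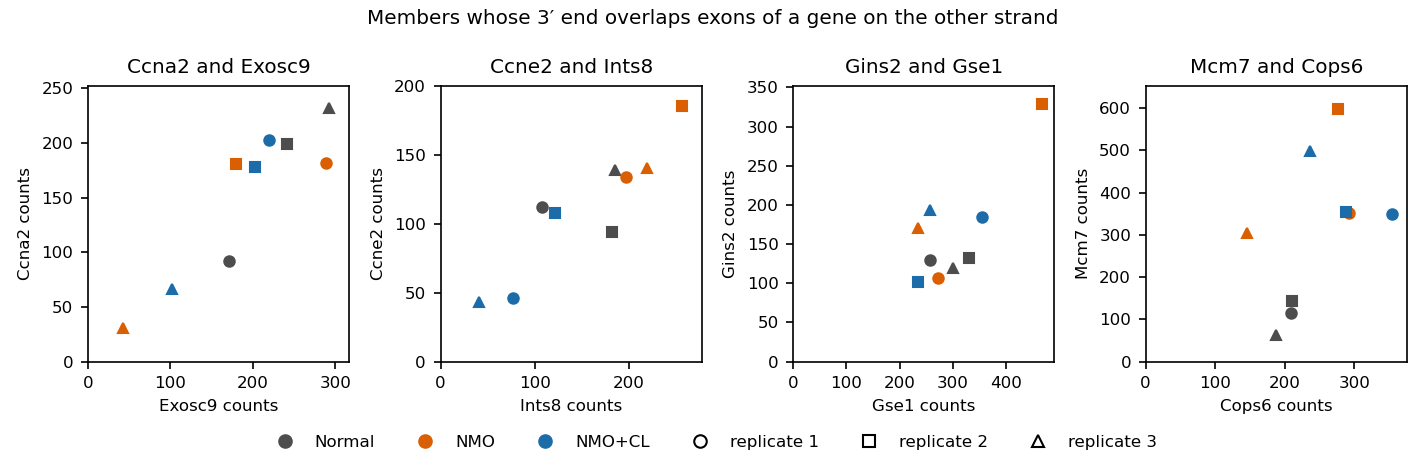
Reads per library of 4 members (y axis) against those of the gene on the other strand whose exons overlap the member's 3′ end (x axis); colours are groups, symbols are replicates and each point is 1 of 9 libraries that also differ in depth. Ccna2 and Ccne2 follow Exosc9 and Ints8 closely, while the injured libraries of Mcm7 lie above the Normal ones (63 to 144 reads), with Cops6 at 187 to 210 reads in Normal and 146 to 355 reads in the injured libraries.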

How the data were processed

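RNA of 9 libraries of sorted microglia (3 groups of 3, each a pool of 3 mice) was measured by QuantSeq 3′ sequencing. The authors aligned single reads with Bowtie2 and counted unique and multiple alignments per gene with bedtools. The deposited values are raw counts per gene symbol. The submitters' processing notes name mm10, and tool versions, annotation and strand setting are not given in the sources used here. Rows of the same symbol were summed. Counts of the 12292 genes that passed filterByExpr (minimum count 10, total 15) were scaled by TMM and fitted over all 9 libraries with 1 coefficient per group, using the quasi-likelihood F-test of edgeR 4.0.16 (R 4.3.3), two-sided, with Benjamini-Hochberg adjustment over all tested genes, and the fit was tested on simulated data. CPM used TMM-scaled library sizes, and the common biological coefficient of variation was 0.519. The study's rule of 1.5-fold and an unadjusted p under 0.05 is given beside the adjusted one. Alternatives were DESeq2 1.42.0 size factors or Wald test, library totals, all genes with a count, limma 3.58.1 (voom), a replicate block, and each library left out.

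Members were named in full where they passed either rule in any comparison, or where fixed by name (Timeless, Tipin, Mcm2 to Mcm7, Pcna, Ccnd1, Cdkn1a, Mki67, Top2a). Genes of the other lists were named where called in any comparison, at most 3 for each list and direction, and further names were chosen after their values were seen. Members and lists were chosen with earlier results of these data known. The comparisons share libraries. Gene positions and 3′ end overlaps came from GENCODE M21 (GRCm38), and promoter windows from RefSeq (GRCm38.p6). The counting floor was 3 reads per library, and intervals and floors cover counting error only. Depth was 5788234 to 7837219 reads per library.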

Additional observations from a re-analysis of the deposited data

How the results depend on the processing

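Over 15 alternatives, the 10 called changes of single members gave 150 values, of which 118 were still called, 32 were not and 0 reversed. Members called higher in NMO against Normal (3) numbered 5 with library totals alone, 7 with all genes with a count, 7 with the DESeq2 Wald test, 0 with limma-voom and 0 to 4 when each library was left out. In NMO+CL against NMO (0 called higher) the count was 1 with all genes with a count, 1 with the DESeq2 Wald test, in each case Cdkn1a, and 0 to 1 with a library left out. In NMO+CL against Normal (7) it was 11 with all genes with a count, 12 with the DESeq2 Wald test and 4 to 9 with a library left out. Members called lower numbered 0 in all 3 comparisons under every alternative run.

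Replicate numbers did not pair the libraries: deviations of libraries of the same number correlated at -0.0148 to 0.0302. With the replicate number as a block, 4 members were called higher in NMO against Normal (Mcm6 was added). The block left the count at 0 between the injured groups and at 7 for NMO+CL against Normal, and Pcna in the latter turned to -0.0501.

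The log2 fold changes that turned sign were uncalled, and the cause was not tested. With each library left out, the ranges in NMO+CL against Normal were Tipin -0.36 to 0.23, Mcm4 -0.90 to 0.40, Cdc45 -1.21 to 0.0328, Pcna -0.25 to 0.27, Mki67 -2.01 to 0.16, Top2a -0.0678 to 0.29 and Birc5 -0.77 to 0.67. In NMO against Normal they were Pcna -0.071 to 0.31, Ccnd2 -0.16 to 0.53 and Ccne2 -0.00323 to 0.34. Mcm4 in NMO+CL against Normal was also 0.0164 with library totals alone. SEs reached 2.63 on the log2 scale (Birc5 in NMO against Normal, at 0 to 18 reads per library).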

Other observations

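Of 7 other inhibitors of the cell cycle kinases 4 were tested, and 3 of these had fitted changes below 0 against Normal in each injured group. The median log2 fold change was -0.94 in NMO and -1.32 in NMO+CL. At 1.5-fold and an unadjusted p under 0.05, 1 was higher and 2 were lower in NMO+CL against Normal (9.9% and 10.2% of all tested genes). The summed level of the 7 was 75.4 to 104 CPM in Normal, 46.8 to 70.3 CPM in NMO and 49.8 to 55.9 CPM in NMO+CL. The injured libraries all lay below the Normal ones in this sum. Cdkn1b, which encodes p27, was called lower in NMO+CL than in Normal, at 22.1, 25.4 and 21.9 CPM against 39.1, 43 and 59.3 CPM (log2 fold change -1.03 ± 0.30, edgeR adjusted p = 0.0392). Cdkn2d, which encodes p19, had the opposite sign, at 12.2, 20.4 and 16.8 CPM in NMO+CL against 3.82, 6.31 and 9.41 CPM in Normal (1.34 ± 0.60, unadjusted p = 0.0395, edgeR adjusted p = 0.195).

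Cdkn1a is a target of p53, and the part of p53 in its level was not tested. The other p53 targets listed had no common direction. Of 12 such genes 10 were tested, with fitted changes against Normal below 0 for 7 in NMO and 6 in NMO+CL. In NMO+CL against Normal 1 was called higher and 2 lower by edgeR (4.78% and 4.43% of all tested genes). Aen, a nuclease of p53-driven cell death, rose from 3.50, 7.96 and 4.20 CPM to 20.5, 23.9 and 13.9 CPM (1.89 ± 0.52, edgeR adjusted p = 0.027). Trp53inp1, a p53 cofactor, fell from 20.7, 31.7 and 25.2 CPM to 8.45, 5.82 and 3.04 CPM (-2.16 ± 0.55, edgeR adjusted p = 0.0191), and Sesn1, a stress-induced regulator of growth signalling, from 43.4, 34.9 and 72.9 CPM to 32.2, 12 and 16.5 CPM (-1.31 ± 0.38, edgeR adjusted p = 0.0345). The summed level of the 12 genes was 369 to 527 CPM in Normal, 356 to 392 CPM in NMO and 312 to 345 CPM in NMO+CL. In NMO against Normal 0 genes of either list were called by edgeR (0.472% of all tested genes higher and 0.0244% lower), and at 1.5-fold and an unadjusted p under 0.05 Aen was higher (5.19%) and Trp53inp1 and Cdkn1c lower (2.77%).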
